A study of Mus musculus with 4 samples.

Results

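The cells described here are Epcam-positive thymic cells that carried transcripts of Ackr4, Zfp385b or Ntrk3. They were selected on measured UMI (unique molecular identifier) counts: at least 1 UMI of Epcam, at least 2 UMIs of Ackr4, Zfp385b and Ntrk3 together, under 2 UMIs of Rrad and Ifi202b together, and 0 UMIs of each of Aire, Fezf2, Psmb11, Otog, Trpm5 and Ptprc. Only cells with over 1000 genes detected and less than 20% of UMIs from mitochondrial genes could enter. The rule kept 216 cells of 13981 called barcodes, of 10245 barcodes within the limits on genes and mitochondrial UMIs, and of 3172 Epcam-positive cells among these, a class that also required 0 UMIs of Ptprc. They are called Ackr4/Zfp385b/Ntrk3 cells below, and the remaining 2956 Epcam-positive cells are called other Epcam-positive cells. Since the 12 genes of the rule fixed who entered, their levels are descriptions and carry no test.

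The study sequenced CD45-negative thymic stroma by droplet-based 3′ single-cell RNA-seq in 6-month-old, untreated C57BL/6 mice. WT libraries (WT 1 and WT 2) came from wild-type mice, a group that the titles also call mock. Z/Z libraries (Z/Z 1 and Z/Z 2) came from homozygous LacZ mice, in which the Foxn1 gene is hypomorphic. Foxn1 encodes the transcription factor that directs thymic epithelial development. The labels give the sex as female in the protocol and as male in the sample table, and thymi of several mice were pooled before digestion, CD45 depletion and a sort whose gate they do not spell out. Nothing in the labels ties a library to separate litters or days, so the spread between the 2 libraries of a genotype may be partly technical.

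The thymic epithelium forms the cortical and medullary scaffold in which T cells mature, and it feeds, attracts and selects them through cytokines, chemokines and MHC molecules. Ackr4 encodes an atypical chemokine receptor that binds CCL19, CCL21 and CCL25 and removes them without signalling through G proteins, and it is known for shaping gradients of these chemokines. Ntrk3 encodes TrkC, a receptor tyrosine kinase for neurotrophin-3, and Zfp385b encodes a zinc finger protein. Gpc5 (a glypican, a heparan sulphate proteoglycan at the cell surface) and Fat3 (a large atypical cadherin) were given as further markers of these cells but took no part in the rule. In the GRCm38 genome with the GENCODE vM21 annotation, Ackr4 lies at chr9:104084157-104126933, Zfp385b at chr2:77410634-77819639, Ntrk3 at chr7:78175959-78738012, Gpc5 at chr14:115092215-116525179 and Fat3 at chr9:15910189-16501285.

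Values for the 4 libraries are given below in the order WT 1, WT 2, Z/Z 1, Z/Z 2 where no library is named. The cells were unevenly spread, with 26, 5, 117 and 68 per library. They held 401762, 55496, 1475469 and 643531 UMIs in sum, so every WT value rests on few cells and WT 2 on very few. Their median depth was 13090, 8930, 9065 and 8033 UMIs per cell, against 20774, 19742, 8817 and 9035 in other Epcam-positive cells. WT 1 and WT 2 shared 202 called barcodes and Z/Z 1 and Z/Z 2 shared 249, whereas any WT and Z/Z pair shared at most 6. Among the chosen cells, 0, 1, 6 and 1 had a barcode that the other library of the same genotype also called.

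The rule can be met in several ways, and most cells met it through a single gene. Of the 216 cells, 128 had UMIs of only 1 of the 3 genes, 69 of a pair of them, and 19 of all of them. Ntrk3 alone carried 68 cells, Zfp385b alone 41 and Ackr4 alone 19. Ackr4 was detected in 14 of 26 cells (53.8%), 3 of 5, 35 of 117 (29.9%) and 25 of 68 (36.8%). Zfp385b was detected in 6 cells (23.1%), 2 cells (40%), 73 cells (62.4%) and 35 cells (51.5%). Over all chosen cells, the few WT cells thus leaned to Ackr4 and the Z/Z cells to Zfp385b. Among cells with under 5 UMIs of 7 fibroblast markers, Ackr4 was in 6 of 9, 1 of 3, 30 of 93 and 18 of 51. There the lean to Ackr4 was seen in WT 1 but not in WT 2, and Zfp385b was in 3, 1, 66 and 28 cells. Ntrk3 was found in 69.2%, 100%, 57.3% and 58.8% of all chosen cells. At the edge of the rule, 6, 0, 38 and 31 cells held exactly 2 UMIs of the 3 genes, and 8, 5, 83 and 73 otherwise eligible cells held 1 UMI and stayed outside.

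**Figure D1:**
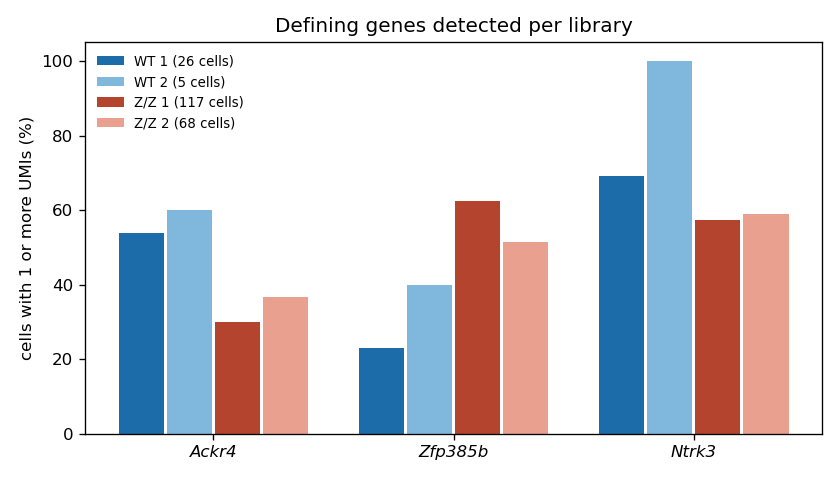
Percent of the chosen cells (y axis) with 1 or more UMIs of each defining gene (x axis), with 1 bar per library. Zfp385b stands at 62.4% and 51.5% in the Z/Z libraries against 23.1% and 40% in the WT libraries. Ackr4 runs the other way, at 29.9% and 36.8% against 53.8% and 60%. The WT bars rest on 26 and 5 cells, and fibroblast-marked cells are included.

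Free RNA and other cell types also gave UMIs of these genes. In the WT libraries, droplets with at most 100 UMIs held Ntrk3 at 183 and 251 CPM (counts of a gene as parts of 1000000 UMIs, here of all UMIs), against 39.5 and 77.0 in the Z/Z libraries, and they held Ackr4 at 3.35 to 8.46 and Zfp385b at 10.6 to 23.3. Cells with at least 20 UMIs of 7 fibroblast markers (a fibroblast gate) had 2 or more UMIs of the 3 defining genes in 26.1%, 23.4%, 21% and 21.1% of cells, at median depths of 15627, 14851, 11338 and 10974 UMIs. In that gate Ntrk3 was detected in 24.6% to 33.2% of cells, Ackr4 in 1.25% to 8.41% and Zfp385b in 5.82% to 10.2%. Endothelial cells, defined by at least 10 UMIs of 7 endothelial markers, reached 2 or more such UMIs in at most 1.11% of cells per library, at median depths of 6223 to 7971 UMIs. With cells thinned to 2000 UMIs, Ntrk3 was found in 8.42% to 10.6% of the fibroblast gate and in at most 2.82% of the endothelial gate.

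The label of epithelial cells held for most of the chosen cells but not for all of them. Pdgfra, Col1a1, Col1a2, Col3a1, Dcn, Lum and Dpt, the 7 fibroblast markers, summed to 5 or more UMIs in 17 of 26 cells (65.4%), 2 of 5, 24 of 117 (20.5%) and 17 of 68 (25%), 60 cells in all. Among other Epcam-positive cells the share was 16.5%, 14.6%, 13.9% and 19%. The markers summed to 8495 and 306 CPM of all UMIs in the WT libraries and to 2632 and 3184 in the Z/Z libraries, against 597 to 857 in other Epcam-positive cells. These 60 fibroblast-marked cells held a median of 171, 6.5, 178 and 56 fibroblast-marker UMIs, and a median of 2, 14.5, 2 and 7 UMIs over 12 epithelial genes such as Cdh1, Krt8 and Krt18. Of them, 6 of 17, 2 of 2, 9 of 24 and 10 of 17 reached 5 or more epithelial UMIs. Of the 60, 31 met the rule through Ntrk3 alone and 33 had exactly 1 Epcam UMI. The other 156 cells (9, 3, 93 and 51) held a median of 26, 19, 16 and 16 epithelial UMIs, and 8 of 9, 2 of 3, 78 of 93 and 47 of 51 of them reached 5 or more. Other cell types were scarcer. The 9 thymocyte markers reached 5 UMIs in 1 of the 216 cells and the 7 myeloid and B cell markers in none, with C1qa at 0 in all libraries. Endothelial markers reached that level in 2, 0, 7 and 1 cells and pericyte and smooth muscle markers in 4, 1, 22 and 1.

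**Figure D2:**
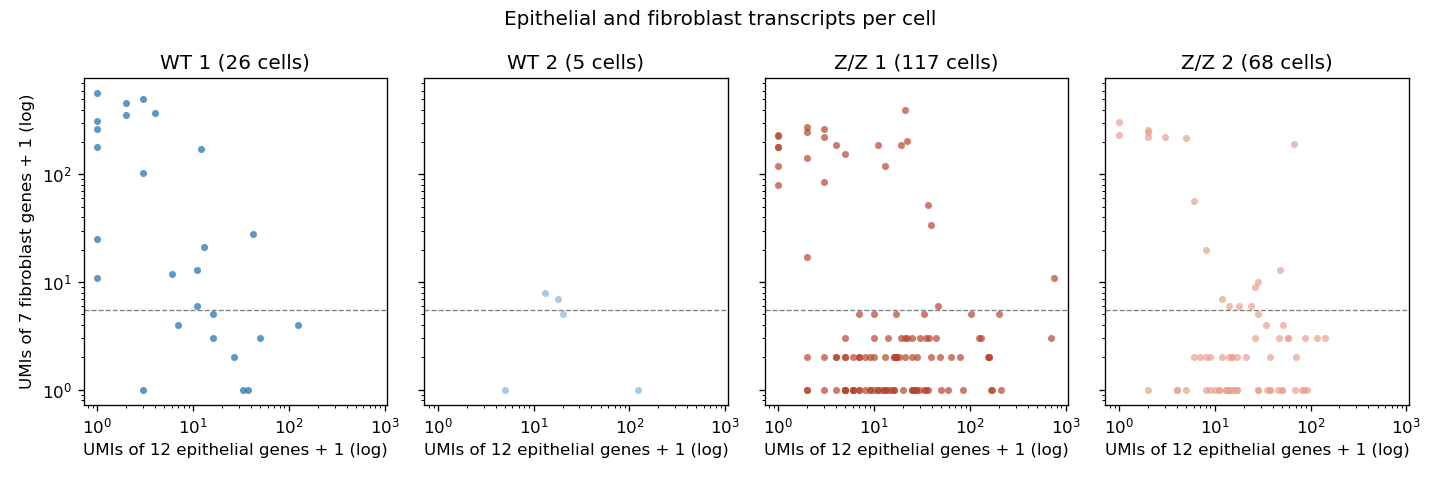
Each point is 1 chosen cell, with its UMIs over 12 epithelial genes (x axis, plus 1, log scale) and over 7 fibroblast markers (y axis, plus 1, log scale), in 1 panel per library. Points above the dashed line are the 17, 2, 24 and 17 cells with 5 or more fibroblast-marker UMIs, many of which sit near the left edge.

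Fibroblast genes led the ranking of the whole group. Ranked by the lowest ratio to other Epcam-positive cells over the 3 libraries with at least 10 chosen cells, the leading 20 genes were Pid1, Lama2, Pdgfra, Cp, Ms4a4d, Hsd11b1, Lhfp, Dcn, Pde7b, Efemp1, Col6a3, Il33, Negr1, Abca8a, Adamts12, Lum, Angpt1, Epha3, Cdh11 and Dlc1. Of these, 18 were higher in the fibroblast gate than in the chosen cells in all 3 libraries, and the exceptions were Angpt1 and Cdh11. Dcn, the matrix proteoglycan decorin, stood at 5932, 310, 2282 and 2609.8 CPM and at 132, 117, 78.8 and 80 in the cells without the fibroblast mark, a fall that the split fixed, since Dcn is 1 of the 7 genes of the mark. Lama2, a laminin chain that is no part of the mark, stood at 1301, 0, 293 and 346 in all chosen cells and at 0, 0, 17.9 and 0 in the unmarked ones. These and all later CPM are parts of a sum over cells that leaves out ribosomal protein and haemoglobin genes, unless said otherwise.

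Gpc5 and Fat3 were detected more often in the chosen cells than in other Epcam-positive cells in all 4 libraries. Gpc5 was found in 7 of 26, 2 of 5, 81 of 117 and 45 of 68 chosen cells, at 405, 233, 764 and 1380.0 CPM, and at 94.4, 110, 455 and 331 in other Epcam-positive cells. Fat3 was found in 8, 4, 66 and 41 chosen cells, at 228, 330, 275 and 487 CPM against 52.9, 28.3, 117 and 148. With every cell thinned to 2000 UMIs, Gpc5 was detected in 23.1%, 40%, 52.6% and 56.7% of the chosen cells against 8.82%, 2.22%, 27.0% and 20.9% of other Epcam-positive cells, and Fat3 in 15.4%, 40%, 34.5% and 38.8% against 6.11%, 5.56%, 14.4% and 14.1%. Thinning left out 1 chosen cell each in Z/Z 1 and Z/Z 2, none in the WT libraries, and 7, 6, 22 and 31 of the other Epcam-positive cells. In the fibroblast gate, both genes were low, with Gpc5 in 2.16% to 6.42% of cells and Fat3 in 1.51% to 3.67%. Other Epcam-positive cells were themselves positive for Gpc5 in 14.6% to 40.7% before thinning, so neither gene is restricted to the chosen cells.

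Among cells that met every other criterion of the rule, Gpc5 and Fat3 tracked the number of defining-gene UMIs unevenly. In Z/Z 2, Gpc5 stood at 158, 327, 955 and 1414 CPM of all UMIs in cells with 0, 1, 2 and 3 or more UMIs of the defining genes, and Fat3 at 64.5, 149, 409 and 450. In Z/Z 1, Gpc5 stood at 316, 903, 1177 and 533 and Fat3 at 79.0, 211, 263 and 244. The climb was therefore steady in Z/Z 2, while in Z/Z 1 cells just outside the rule, with 1 UMI, already held more Gpc5 than cells with 3 or more. In WT 1, Gpc5 stood at 30.6, 9.05, 158 and 420 and Fat3 at 36.2, 0, 13.2 and 255, and in WT 2 only the band of 3 or more held any Gpc5 (216). Depth moved with the bands: median UMIs per cell were 6373, 7889, 12292 and 13700 in WT 1, 5896, 6466, 6794 and 10416 in Z/Z 1, and 5694, 5074, 7583 and 9078 in Z/Z 2. Its part in the pattern was not tested.

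**Figure D3:**
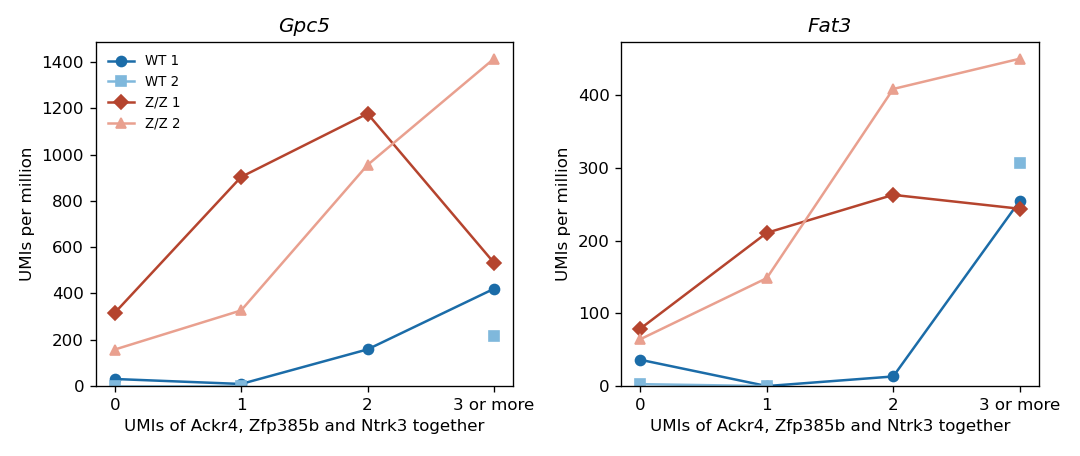
Gpc5 (left) and Fat3 (right) in CPM of all UMIs (y axis) against the number of defining-gene UMIs per cell (x axis), in cells that met all other criteria, with 1 line per library. WT 2 has no cell in the band of 2 UMIs, and Gpc5 in Z/Z 1 drops from 1177 to 533 between the last bands.

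The 156 cells without the fibroblast mark were compared with the other Epcam-positive cells without it (375, 82, 1200 and 824 cells). Genes were ranked on the Z/Z libraries alone, by the lower of the 2 log2 ratios, and the leading 30 were then read in the WT libraries. The division by fibroblast markers and this list were chosen after values had been seen, so no test was run. In 3 of the 30 genes, Spink5, Wfdc2 and Gp2, 1 cell held over 50% of the UMIs in a Z/Z library. Of the other 27, all were higher in the unmarked cells in WT 1 and 18 were higher in WT 2, which has 3 such cells. Over all 3523 genes at that level, 51.8% were higher in WT 1, 51.0% in WT 2 and 32.8% in both, and 18 of the 27 were higher in both. Of the 27, 14 were over 2-fold higher in both WT libraries. In WT 2, 9 were lower: Cdh11, Sv2b, Kcnh1, Edaradd, Tdrd3, Ly75, Ror1, Rbfox1 and Msrb3. Several genes counted as higher in WT 2 rest on little. Il34, Prelp and Angpt1 had 1 UMI there, and all WT 2 UMIs of Gpc5, Col4a5, Adam28, Igfbp4 and Arhgap6 came from 1 cell each.

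The genes given values here were picked from the 27 after their values had been seen and are ordered by their known role, not by rank. No list or theme was tested among them. Kirrel3, an immunoglobulin-type adhesion protein, stood at 1693, 6459, 2753 and 2534 CPM in the unmarked cells, against 112, 241, 1351 and 1079 in the other unmarked cells. It was found in 7 of 9, 3 of 3, 85 of 93 and 44 of 51 cells. Fat3 had 567, 352, 379 and 618 against 27.7, 22.2, 119 and 154. Gpc5 had 1087, 264, 1168 and 1746 against 57.6, 11.1, 489 and 376, although in WT 2 all 9 UMIs came from 1 cell. Fras1, an extracellular matrix protein of epithelial basement membranes, had 369, 58.7, 125 and 100.0 against 73.5, 35.6, 38.7 and 36.7. Col4a5, a type IV collagen chain of basement membranes, had 227, 117, 78.8 and 60.0 against 29.6, 27.8, 37.0 and 26.8. All 4 of its WT 2 UMIs came from 1 cell, and the fibroblast gate held 119 and 93.4 in the Z/Z libraries. Cdh11, a cadherin better known from mesenchyme, had 246, 0, 150 and 135 against 48.0, 38.4, 45.4 and 52.7, so WT 2 went against the other libraries.

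Scn1a, a voltage-gated sodium channel subunit, had 530, 558, 398 and 503 CPM against 37.4, 56.7, 155 and 124, and was found in 7 of 9, 3 of 3, 69 of 93 and 38 of 51 cells. Kcnh1, a voltage-gated potassium channel, had 492, 29.4, 198 and 100.0 against 31.0, 46.7, 63.2 and 40.8, with 1 UMI in WT 2. Glrb, the beta subunit of the glycine receptor, had 37.8, 88.1, 58.5 and 60.0 against 4.54, 8.34, 23.9 and 18.5. Frmpd4, a scaffold protein of synapses, had 652, 851, 787 and 778 against 223, 224, 363 and 294. Sv2b, a synaptic vesicle glycoprotein, had 359, 29.4, 245 and 248 against 34.3, 30.0, 97.1 and 76.3. The ranking fixed the order in the Z/Z libraries. In the WT libraries, Scn1a, Glrb and Frmpd4 were higher in both. Kcnh1 and Sv2b were higher in WT 1 but not in WT 2, where each had 1 UMI.

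Angpt1, the vascular ligand angiopoietin 1, had 378, 29.4, 119 and 125 CPM against 38.3, 20.6, 42.7 and 47.4. Il34, a ligand of the CSF1 receptor, had 47.3, 29.4, 210 and 168 against 15.9, 8.34, 79.5 and 80.1. Both had 1 UMI in WT 2, and the fibroblast gate held Il34 at 298, 339, 214 and 196. Il33, an alarmin cytokine, had 28.4, 88.1, 53.7 and 62.5 against 9.43, 2.22, 22.2 and 15.7, from 3, 3, 45 and 25 UMIs. The fibroblast gate held far more Il33, at 1195 and 779 in the WT libraries. Gli3, a transcription factor of the hedgehog pathway, had 331, 147, 300 and 223 against 73.9, 48.9, 148 and 113. Ly75, the cortical epithelial endocytic receptor DEC-205, had 246, 58.7, 269 and 273 against 204, 145, 118 and 130 and was lower in WT 2. In 7 of the 27 genes the fibroblast gate was higher than the unmarked cells in both Z/Z libraries. They were Arhgap6, Il33, Prelp, Col4a5, Ror1, Il34 and Igfbp4.

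**Figure D4:**
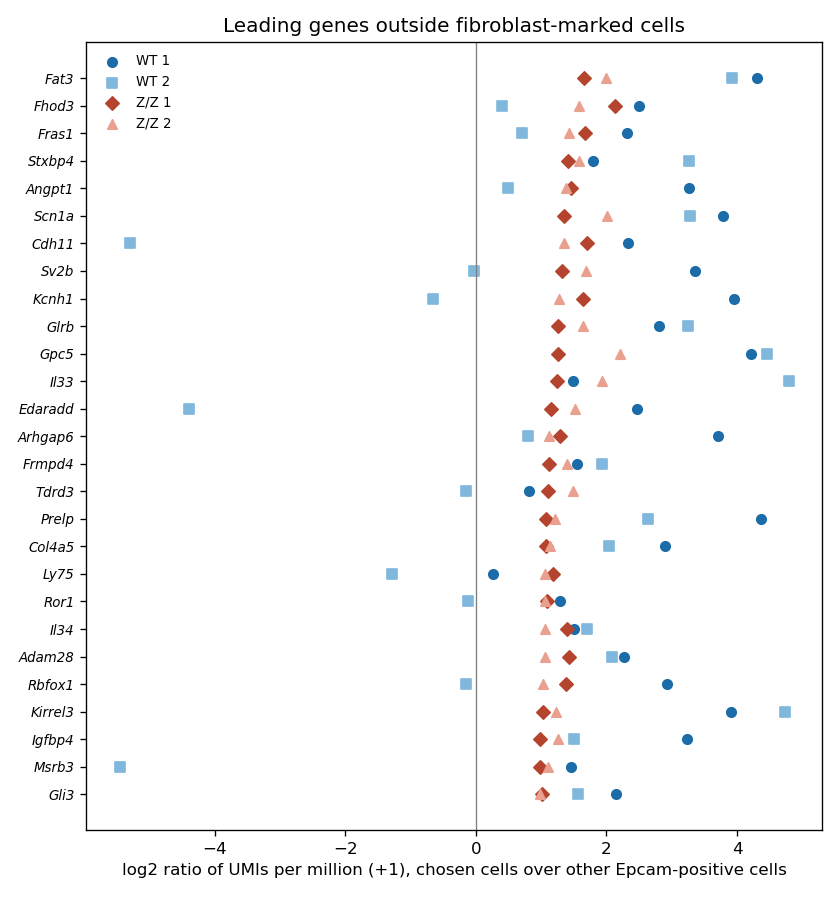
Log2 ratio of CPM, each plus 1, between the chosen cells and other Epcam-positive cells, both without the fibroblast mark (x axis), for 27 genes ranked on the Z/Z libraries (y axis), with 1 symbol per library. All 27 lie right of 0 in WT 1 and 18 in WT 2, where the symbols near -5 are genes with no UMI in the 3 cells.

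Long genes were frequent among these genes. Of the 27, 19 span over 100 kb, against 27.7% of all genes at that level. The chosen cells also took a larger share of their UMIs from genes over 100 kb, at 26.7%, 26.9%, 23.0% and 23.3%, against 19.2%, 20.2%, 20.4% and 18.1% in other Epcam-positive cells. The counts include intronic reads, and Zfp385b and Ntrk3 themselves span over 100 kb. The part of this in the list above was not tested.

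The gene lists place the unmarked cells within the epithelium as follows, with lists and cells chosen on earlier results and no test. Of 11 transcription factors of the thymic anlage and epithelium, 10 were measured at 10 or more CPM in either class, and their median log2 ratio of unmarked cells to all other Epcam-positive cells was 1.44, 1.52, 0.39 and 0.30. Over all chosen cells the list median was 0.21, 1.69, 0.22 and 0.07, beside a median over all genes between -0.07 and 0.02. No such all-gene median was taken for the unmarked cells, which number 9 and 3 in the WT libraries. Trp63, which maintains stratified epithelial progenitors, stood at 596, 440, 423 and 205 CPM in the unmarked cells, against 130, 88.6, 135 and 96.8 in other Epcam-positive cells. Eya1, a transcriptional coactivator of pharyngeal pouch development, stood at 586, 939, 672 and 588 against 160, 185, 382 and 245, and Meis1 at 738, 734, 738 and 533 against 131, 147, 381 and 233. Pax1 stood at 180, 88.1, 287 and 248 against 117, 98.9, 219 and 206, a smaller difference that turned in WT 2. Foxn1, also of this list, stood at 86.3, 0, 49.4 and 62.0 CPM of all UMIs in the unmarked cells. Other Epcam-positive cells held Foxn1 at 82.0, 104, 49.2 and 65.6 CPM without ribosomal protein and haemoglobin genes. These CPM have different bases, so small differences cannot be read from them, and Foxn1 showed no rise of the size seen for Trp63. Over all chosen cells, 5, 8, 7 and 5 of the 10 measured genes were higher than in other Epcam-positive cells.

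Mature functions were lower or unequal. The 11 measured medullary genes had a median log2 ratio of -1.91, -1.59, -1.44 and -1.25 in the unmarked cells, but the rule removed cells with Aire or Fezf2 and so removed medullary cells. Tnfrsf11a, the receptor RANK, stood at 66.2, 147, 5.97 and 7.5 CPM against 252, 210, 74.8 and 94.5 in other Epcam-positive cells. The 8 MHC class II genes had medians of -1.13, -1.29, -0.03 and -0.40, so they were lower in the WT libraries and near the other cells in Z/Z 1. The cortical list, which the removal of Psmb11-positive cells touches, gave -0.56, -1.01, 0.18 and -0.12. Ccl25, a ligand of Ackr4 that draws progenitors to the thymus, stood at 132, 117, 75.2 and 123 against 712, 262, 66.3 and 141. Of the 12 epithelial identity genes, 11, 12, 11 and 11 were measured, with medians of -0.67, -0.19, -0.60 and -1.58, and Krt8 stood at 946, 587, 1194 and 960 CPM against 1451, 1479, 2034 and 2880.1. The proliferation list, with 10, 12, 8 and 9 of 15 genes measured, had medians of -3.29, -4.17, -0.55 and -1.14. The WT medians rest on 9 and 3 unmarked cells with 115915 and 35608 UMIs. A gene near 10 CPM can have 0 UMIs there, so these WT medians do not measure the size of a difference.

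Genes of the lists built around Ntrk3, Gpc5 and Fat3 ranged widely in level. In the neurotrophin list, Ptprd, a receptor phosphatase, was the most abundant, at 1352, 705, 1219 and 990 CPM in the unmarked cells against 227, 255, 717 and 509 in other Epcam-positive cells. Ntrk2, the receptor TrkB, stood at 109, 0, 39.8 and 85.6 in all chosen cells and at 0, 0, 19.1 and 5.00 in the unmarked ones, so most of it came from fibroblast-marked cells. Gpc6, another glypican, stood at 1092, 407, 323 and 344 in all chosen cells and at 28.4, 528, 214 and 45.0 in the unmarked ones. It was thus far lower without fibroblast-marked cells in WT 1 and Z/Z 2, less so in Z/Z 1, and higher in WT 2. Fat4 stood at 37.8, 58.7, 68.1 and 50.0 in unmarked cells against 12.6, 8.01, 26.6 and 24.6, and Fat1 differed less, at 142, 235, 137 and 115 against 160, 185, 107 and 89.8. A like rule for Adamts19 and Kctd16, which defines another Epcam-positive class of 454 cells, shared 41 cells with the 216, while the class chosen by Rrad and Ifi202b shared none, as the rule fixes.

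To ask whether the Foxn1 allele altered how common these cells were, their share of Epcam-positive cells was compared over libraries. WT 1 gave a share of 5.47% (26 of 475, exact Clopper-Pearson 95% interval 3.61% to 7.92%) and WT 2 of 4.95% (5 of 101, 1.63% to 11.2%). Z/Z 1 gave 7.74% (117 of 1511, 6.45% to 9.21%) and Z/Z 2 gave 6.27% (68 of 1085, 4.90% to 7.88%). These intervals cover counting error only. The WT libraries averaged 5.21% ± 0.370 (SD, n = 2) and the Z/Z libraries 7.01% ± 1.04 (SD, n = 2), a difference of 1.79 points. Both Z/Z libraries lay above both WT libraries, and the exact permutation test over libraries (two-sided) gave p = 0.333, the smallest value that 2 against 2 libraries allow. The difference was -0.26 points when 3 defining-gene UMIs were required, 0.15 points without cells of shared barcodes and 1.06 points without Z/Z 1. In a setting added after the data had been seen, fibroblast-marked cells were taken out of the chosen cells only and stayed in the denominator. The shares were then 1.89%, 2.97%, 6.15% and 4.70% (9 of 475, 3 of 101, 93 of 1511 and 51 of 1085), a difference of 2.995 points. With cells thinned to 2000 UMIs before the rule, the shares were 1.69%, 1.33%, 3.01% and 2.90%.

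**Figure D5:**
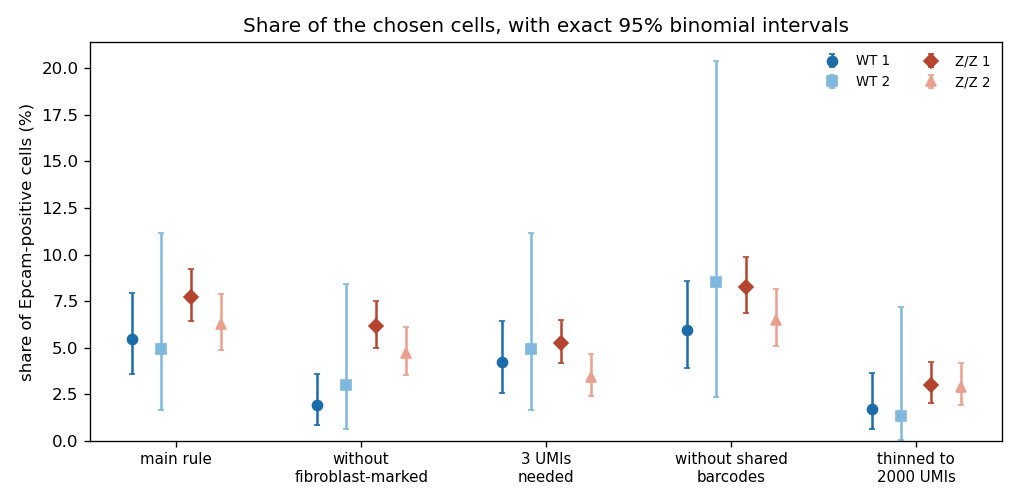
Share of Epcam-positive cells that met the rule (y axis, percent) under 5 settings (x axis), with 1 symbol per library and exact 95% binomial intervals as bars. The Z/Z symbols lie above the WT symbols under the main rule, without fibroblast-marked cells and after thinning. The symbols of the genotypes overlap when 3 UMIs are needed or shared barcodes are left out. Fibroblast-marked cells were taken out of the chosen cells only, not out of the Epcam-positive cells.

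Foxn1, the altered gene, was read first in each library. Its 3′ tags were seen in 3 of 26, 0 of 5, 32 of 117 and 21 of 68 chosen cells, at 27.2, 0, 47.3 and 61.1 CPM. In WT 1, 80% of its 10 UMIs came from 1 cell, so the chosen WT cells say little about this gene. Other Epcam-positive cells held 82.0, 104, 49.2 and 65.6, with no overlap between genotypes and a log2 fold change of -0.60 (SE 0.22, edgeR quasi-likelihood adjusted p = 0.125). The sources used here do not place the LacZ cassette relative to the 3′ end, so whether these tags read the mutant allele was not tested. In the chosen cells the log2 fold change was 1.26 (SE 0.68, adjusted p = 0.974), and it was -0.16 without fibroblast-marked cells.

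Across all genes, UMI sums per library of the chosen cells were compared between Z/Z and WT with edgeR. Of 7432 genes tested, 0 passed an adjusted p of 0.05 in either direction, which is 0% of them. At an unadjusted p under 0.05 there were 318 genes (4.28%), 188 higher and 130 lower in Z/Z. DESeq2 called 5 higher (Wfdc2, Fabp4, Klk1, Scgb3a1 and Spink5) and 2 lower (Nrg1 and Nrxn3). Without Z/Z 1, edgeR called 5 higher and 0 lower, and without the filter on low counts it called 93 higher and 62 lower. In other Epcam-positive cells, where each library had 96 to 1394 cells, the same test called 1240 of 18389 genes higher (6.74%) and 1456 lower (7.92%) in Z/Z. With 31 WT cells in all, a gene that did not pass here is not shown to be equal between genotypes.

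The genes with the smallest p in each direction are given as values, since none passed. Picking genes in this way favours groups that do not overlap. Phex, an endopeptidase of phosphate balance, had 5.43, 0, 155 and 152 CPM, from 1, 0, 33 and 23 cells. The groups did not overlap, and the ratio of the summed groups was 32.4 (95% counting interval 8.88 to 269, from 2 WT UMIs), with an adjusted p of 0.329 in edgeR. Other Epcam-positive cells showed the same order, at 10.6, 17.0, 86.7 and 68.5, and there Phex passed (log2 fold change 2.66, SE 0.30, edgeR adjusted p = 0.0147). Ucma, a secreted cartilage matrix protein, had 2.72, 0, 101 and 85.6 in the chosen cells, from 1, 0, 32 and 20 cells, and 44.2, 34.9, 91.3 and 95.1 in the other cells. Phex and Ucma were thus spread over many Z/Z cells, and for neither did a difference in genotype effect between the 2 classes pass (edgeR interaction adjusted p = 0.540 and 0.274), although that for Ucma passed without WT 2 (difference 4.10, edgeR adjusted p = 6.49e-05) and without the filter on low counts (4.29, adjusted p = 0.0207).

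In the remaining higher genes, 1 cell held a large part of the UMIs. Fabp4, a fatty acid carrier, had 5.43, 0, 399 and 332 CPM, from 2, 0, 27 and 19 cells. A single cell gave 46.6% of the Fabp4 UMIs in Z/Z 1 and 88.9% in Z/Z 2. Spink5, a protease inhibitor of keratinising epithelium, had 0, 0, 546 and 318, all from 2 cells in Z/Z 1 and 1 in Z/Z 2. Trdn, a muscle protein of the sarcoplasmic reticulum, had 0, 0, 82.5 and 103, all from 1 cell in each Z/Z library. Among the lower genes, Nrg1, a ligand of ERBB receptors, had 619, 679, 26.3 and 38.4 (log2 fold change -4.30, SE 0.44, edgeR adjusted p = 0.255), but 1 cell held 96.1% of the UMIs in WT 1 and 88.6% in WT 2. Nrxn3, a presynaptic adhesion protein, had 196, 330, 25.5 and 21, with 90.3% and 100% of the WT UMIs in 1 cell. Ndrg1 had 215, 252, 38.3 and 47.2, from 12 cells in WT 1 and 2 in WT 2. Flrt2 had 342, 213, 50.3 and 45.4 and Prickle2 had 193, 291, 57.0 and 40.2. In each of these 5 lower genes both WT libraries lay above both Z/Z libraries, an order that picking by the smallest p favours.

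Gpc5 and Fat3, which the rule did not use, were also compared between genotypes. In the chosen cells both Z/Z libraries lay above both WT libraries for Gpc5, whereas Fat3 overlapped, with WT 2 at 330 above Z/Z 1 at 275 CPM. Gpc5 had a log2 fold change of 1.72 in the chosen cells (SE 0.53, adjusted p = 0.974 in edgeR) and 2.04 in the other Epcam-positive cells (SE 0.23, adjusted p = 0.0147), with an interaction of -0.13 (SE 0.62, adjusted p = 1). Fat3 had 0.53 (SE 0.45, adjusted p = 0.974) and 1.77 (SE 0.30, adjusted p = 0.0230), with an interaction of -1.10 (SE 0.53, adjusted p = 0.639). In the other Epcam-positive cells both markers therefore rose with the allele. In the chosen cells neither passed, and the difference between the classes did not pass for either. Without fibroblast-marked cells in both classes, where 9 and 3 chosen WT cells are left, the log2 fold change in the chosen cells was 1.01 for Gpc5 and 0.06 for Fat3 (edgeR adjusted p = 0.766 and 0.988). The interaction then passed for both, at -2.38 for Gpc5 (SE 0.54, edgeR adjusted p = 0.00266) and -2.15 for Fat3 (SE 0.48, adjusted p = 0.00235), beside a median of 0.33 over all genes. This setting was added after the data had been seen, and over the other settings the adjusted p of the interaction ran from 0.432 to 1 for Gpc5 and from 0.0738 to 1 for Fat3.

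No gene of any list passed the test in the chosen cells, and the lists are described by counts and medians beside the median of all 7432 genes (0.00). All 11 immediate early and heat shock genes had a positive log2 fold change, with a median of 1.18, and 4 of them (Egr1, Ier2, Hspa1a and Dnajb1) had an unadjusted p under 0.05, against 2.53% of all genes as higher. Without fibroblast-marked cells all 11 were again positive, with a median of 1.03. In other Epcam-positive cells 6 of the 11 passed as higher, against 6.74% of all genes, and all 11 were positive. All 8 MHC class II genes were positive in the chosen cells, with a median of 0.41, but without fibroblast-marked cells 7 of 8 were, with a median of 0.12 beside 0.04 over all genes. H2-Aa, a class II alpha chain, stood at 603, 1357, 935 and 1095 CPM in all chosen cells and at 1343, 881, 1149 and 1306 in the unmarked ones, so the genotypes overlapped in both. In the other cells the median of the 8 was -0.56. Of the 8, 0 passed the test of the difference in edgeR, and 6 were higher at an unadjusted p under 0.05, against 4.75% of all genes, or 5 without fibroblast-marked cells. The 7 fibroblast markers were all negative, with a median of -1.02. Fibroblast-marked cells made up 65.4% of the chosen cells in WT 1 and 20.5% and 25% in the Z/Z libraries, and their part in these list values was not tested beyond the settings given. Of 8 cortical genes tested, 5 were positive (median 0.29), with Ly75 at 1.49 (SE 0.40). Of 7 medullary genes, 2 were positive (median -0.58), with Krt14 at -2.23 (SE 0.62) and Krt5 at -2.25 (SE 0.86). The Fat and Dachsous, glypican and neurotrophin lists had 2, 2 and 3 of 7 genes positive each, with medians of -0.33, -0.30 and -0.27. Without fibroblast-marked cells the last 2 medians turned, to 0.11 over 5 glypican and syndecan genes and 0.07 over 3 neurotrophin genes.

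Whether the genotype effect in the chosen cells differed from that in other Epcam-positive cells was tested with an interaction term and the library as a block. Of 13344 genes, 5 passed (0.0375%): Spink5, Fabp4, Wfdc2, Trdn and Esrrg, all higher in Z/Z relative to the other class, and all with over 40% of their UMIs in 1 cell in each Z/Z library. The count turned on single libraries, with 198 higher and 111 lower without WT 1, 567 and 567 without WT 2, 8 and 0 without Z/Z 1, and 44 and 10 without Z/Z 2, and it was 83 and 95 without fibroblast-marked cells. The genes with the smallest p in the lower direction, Cpxm2, Flrt2, Nrg1, Loxl1 and Arhgap20, did not pass (edgeR adjusted p from 0.132 to 0.264). Without fibroblast-marked cells their differences moved from -3.23 to -0.46 for Flrt2, from -2.52 to -1.11 for Nrg1 and from -4.11 to 5.94 for Arhgap20, and less for Cpxm2 (-3.41 to -3.07) and Loxl1 (-4.18 to -3.04). Cpxm2, a secreted carboxypeptidase-like protein, had 78.8, 77.5, 51.0 and 31.4 CPM in the chosen cells and 7.68, 5.18, 43.5 and 38.5 in the other cells.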

How the data were processed

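Cell Ranger 7.0.1 was run by the authors against mm10. The deposited values are raw UMI counts of each gene in each barcode, intronic reads included, in 1 matrix for barcodes called as cells and 1 for every barcode, per library. The deposited summaries also give percent values of reads (exonic, transcriptome and saturation), used as given. Total counts over called barcodes were 29298450, 8468086, 50705511 and 41475499 in WT 1, WT 2, Z/Z 1 and Z/Z 2. The labels name a v2 kit and the methods a v3 chip, which was not resolved.

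Cells were chosen by the rule in the report. The members, gene lists and alternatives were chosen with earlier results of these data known. No doublet caller was run. A filter on the top 3.9% of cells by UMIs and on other lineages' genes was an alternative. Counts were summed per library and class, leaving out 111 ribosomal protein and haemoglobin features, and Z/Z was compared with WT by edgeR 4.0.16 (filterByExpr, TMM, quasi-likelihood test, Benjamini-Hochberg adjustment) in R 4.3.3. DESeq2 1.42.0 was an alternative. The script was tested on simulated data. Thinning drew 2000 UMIs per cell. Log2 ratios between classes used CPM plus 1.

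For the genotype comparison, the genes named were, in the absence of any that passed, the 5 with the smallest p in each direction. The same number was named for the difference between classes, together with Foxn1. For the chosen against other cells they were those with the largest lowest ratio, at 50 CPM or more. Genes of the rule, unnamed transcripts and mitochondrial genes were left out of naming. Protein sequences were not used here.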

Additional observations from a re-analysis of the deposited data

Results flagged for a closer look

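For 5 genes the effect of the Foxn1 allele differed between the Ackr4/Zfp385b/Ntrk3 cells and other Epcam-positive cells by the interaction test in edgeR (library as a block, 2 libraries per genotype). The fitted difference in log2 fold change was 16.35 for Spink5 (SE 1.43, adjusted p = 0.00231), 6.99 for Fabp4 (SE 0.73, adjusted p = 0.00323), 5.33 for Wfdc2 (SE 0.57, adjusted p = 0.00323), 14.88 for Trdn (SE 1.58, adjusted p = 0.00408) and 13.56 for Esrrg (SE 1.64, adjusted p = 0.0118). In cells thinned to 2000 UMIs, Spink5, Fabp4 and Wfdc2 passed again, Esrrg did not (8.97, adjusted p = 0.337), and Trdn was not among the genes tested. All 5 were higher in both Z/Z libraries than in both WT libraries of the chosen cells, an order that picking by the test favours. Fabp4 stood at 5.43, 0, 399 and 332 CPM in the chosen cells against 1015, 815, 639 and 606 in other Epcam-positive cells. Esrrg stood at 0, 0, 51.0 and 99.6 against 313, 201, 68.4 and 99.9. For both, the chosen Z/Z cells were not above the other cells, and the chosen WT cells were at or near 0. Spink5, Wfdc2 and Trdn were higher in the chosen cells than in the other cells of both Z/Z libraries.

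Spink5, Trdn and Esrrg had 0 UMIs in the chosen cells of both WT libraries, so their fitted values depend on the prior count. Against a floor of 3 UMIs over the WT group, the summed Z/Z level was 66.8-fold higher for Spink5, 12.4-fold for Trdn and 9.18-fold for Esrrg. These values are not lower bounds, since the floor treats UMIs as independent and single cells held many of them. Fabp4 was found in 27 and 19 chosen cells of Z/Z 1 and Z/Z 2, and Wfdc2 in 52 and 33. Spink5 was found in 2 and 1, Trdn in 1 and 1, and Esrrg in 6 and 3. Single cells held much of each sum. In Z/Z 1 and Z/Z 2 the single highest cell gave 98.8% and 100% of the Spink5 UMIs, 46.6% and 88.9% of those of Fabp4, 65.5% and 94.0% of those of Wfdc2, 100% and 100% of those of Trdn, and 58.8% and 94.7% of those of Esrrg. The test compares library sums, in which a single cell can carry such a value.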

How the results depend on the processing

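The share of the cells was higher in Z/Z in all alternatives but 1: with 3 defining-gene UMIs required, the difference was -0.26 points. Leaving out 1 library gave 1.06 to 2.53 points. The count of genes that passed between genotypes in the chosen cells (0 higher, 0 lower) became 0 and 2 with the doublet filter, 0 and 1 in thinned cells, 93 and 62 without the filter on low counts and 5 and 2 with DESeq2, and leaving out 1 library gave 0 to 5 higher. With the replicate block it stayed at 0 and 0, with 142 genes at an unadjusted p under 0.05 in edgeR. Deviations of same-numbered libraries from their group means had a correlation of -0.09 over 7436 genes, so the numbers were not taken as pairs. The count for the difference between classes (5 and 0) became 83 and 95 without fibroblast-marked cells, a setting chosen after seeing the data, 12 and 8 in thinned cells, 139 and 61 without the filter, and 5 and 1 with upper quartile normalization. Leaving out 1 library gave 8 to 567 higher and 0 to 567 lower, in fits that assume the lone library varies like the other group. Some of these fits also moved the median of all genes, to 1.06 without WT 1 and 0.37 without WT 2. The causes were not tested. Among single genes, Foxn1 turned to -0.16 in the chosen cells without fibroblast-marked cells, and the difference for Arhgap20 turned from -4.11 to 5.94 without fibroblast-marked cells, and leaving out 1 library gave -4.45 to 7.30, the latter without WT 1. The difference for Fat3 turned from -1.10 to 0.21 in thinned cells, and that for Gpc5 (-0.13) ran from -0.65 to 0.74 when 1 library was left out. The WT values rest on few cells, with 55496 UMIs from 5 chosen cells in WT 2 and a fibroblast mark on 17 of the 26 in WT 1.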

Other observations

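Igkc, Jchain, Pth, Syt1 and Dpp10 were among the 10 genes that stood lowest in the chosen cells relative to other Epcam-positive cells, given here as values with no test. Both classes required 0 Ptprc UMIs, but only the chosen cells required 0 Aire and Fezf2 UMIs, so lower levels of genes that Aire- or Fezf2-positive cells express are in part fixed by the rule. Igkc, an immunoglobulin light chain, stood at 24.4, 96.9, 81.0 and 33.2 CPM in the order WT 1, WT 2, Z/Z 1, Z/Z 2, against 618, 31734, 9073 and 6779 in other Epcam-positive cells, and Jchain at 2.72, 0, 6.75 and 0 against 191, 1779, 324 and 210. Pth, parathyroid hormone, stood at 0, 0, 1.5 and 21 against 1032, 17.4, 171 and 546. Among neuronal genes, Syt1 stood at 97.8, 0, 6 and 10.5 against 1715, 1807, 195 and 315, and Dpp10 at 5.43, 0, 3 and 0 against 742, 750, 117 and 200. Of the 19 neuronal adhesion genes, 17, 14, 14 and 14 reached 10 CPM. Their median log2 ratio was 0.44, -3.70, 0.05 and 0.29 over all chosen cells. In the unmarked cells, of which WT 2 held 3, it was -1.07, -5.34, -0.63 and -1.37. The list was thus lower in all libraries only without fibroblast-marked cells. Ackr3, an atypical receptor of CXCL12, stood at 215, 19.4, 12.0 and 147 in all chosen cells and at 18.9, 29.4, 3.58 and 0 in the unmarked ones.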
